A study of Mus musculus with 9 samples.

Results

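Livers of mice that lived at 1 g in a centrifuge aboard the International Space Station (AG) were compared with livers of mice kept on the ground (GC). The comparison used the 6 libraries titled AG_1 to AG_3 and GC_1 to GC_3, of 9 in the series, and all gene rows of the deposited table. The other 3 libraries come from flight mice that were not centrifuged (MG), and they enter the estimate of the spread and a few values set beside the comparison. Tests, fold changes and list counts are given with and without AG_1, a library rich in macrophage transcripts, and levels are given per library.

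All animals were male C57BL/6J mice aged 14 weeks, bought at 5 weeks, and the labels name no engineered allele and no drug. AG mice spent about 35 days in cages turning at 77 rpm and were killed 2 days after splashdown. GC mice spent the same 35 days at Tsukuba at 1 g. MG mice flew with the AG mice and were killed at the same time after landing. Flight mice came from the Jackson Laboratory and ground mice from Charles River Japan. Supplier, launch, landing, the 2 days after it and the stay in orbit therefore cannot be told apart in AG against GC, while both groups lived at 1 g. Each flight group held 6 mice, the labels do not tie a library to a mouse, and p-values therefore measure how much these libraries vary, in part perhaps for technical reasons.

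As background, the liver makes cholesterol and fatty acids under the SREBP transcription factors and burns fatty acids under the nuclear receptor PPAR-alpha. The pulsatile secretion of growth hormone in male rodents sets a male programme of liver genes through STAT5, which includes the major urinary proteins, and keeps a female programme low. Glucocorticoids, the clock and foreign compounds each act on further sets of liver genes.

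Gene counts per library lay between 6194521 in GC_2 and 8957331 in MG_1. Levels are given as CPM, a gene's counts relative to the library total, after scaling by TMM, a factor that aligns most genes between libraries, and 3 counts corresponded to 0.335 to 0.484 CPM. Markers of hepatocytes, the main liver cell, summed to between 109102 and 146071 CPM in the AG and GC libraries. Macrophage markers summed to 1690 CPM in AG_1, against 517 in AG_2, 486 in AG_3 and 465 to 504 in GC. Within that list, the scavenger receptor gene Marco reached 278 CPM in AG_1 and 2.46 to 5.98 in the other AG and GC libraries. The macrophage gene Adgre1 reached 137 CPM in AG_1 against 13.1 to 21.1, and the heme-degrading enzyme gene Hmox1 149 CPM against 15 to 20.3. Clec4f, a gene of resident Kupffer cells, stood at 78.7 CPM in AG_1, inside the 74.9 to 91.1 of the others. More cells of a type and more RNA per cell cannot be told apart in such bulk samples. Skeletal muscle markers summed to 399 CPM in GC_1, 1077 in GC_2, 1.65 in GC_3, 186 in AG_1, 2.74 in AG_2 and 28.8 in AG_3. Reads in introns made up 33.8% to 35.6% of unique gene reads in GC, 40.9% in AG_1, 36.6% in AG_2 and 36.1% in AG_3. The part of these differences in the results below was not tested unless a value is given.

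**Figure D1:**
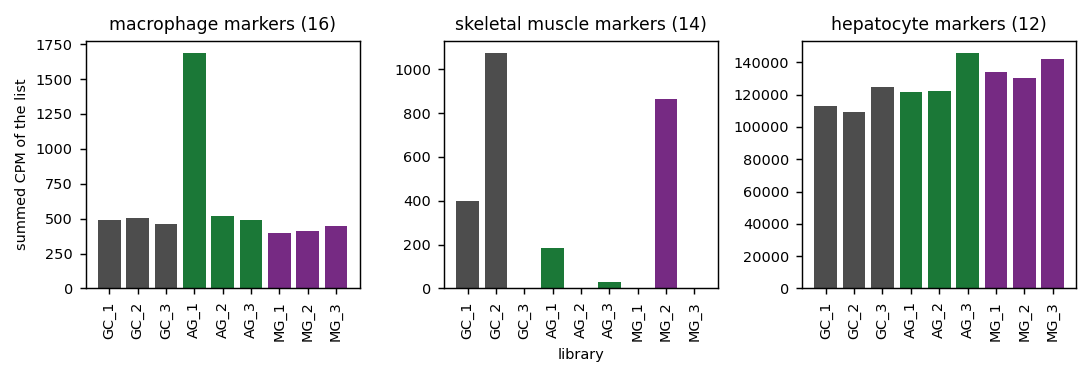
Summed CPM of the macrophage, skeletal muscle and hepatocyte marker lists, 1 bar per library, coloured by group. The macrophage bar of AG_1 stands at 1690 CPM, and the muscle bars are tallest in GC_2 (1077) and MG_2 (865).

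No gene passed the adjusted threshold of 0.05 between AG and GC with all libraries. edgeR's quasi-likelihood test with Benjamini-Hochberg adjustment called 0 of 11884 genes, with a smallest adjusted p of 0.111. At an unadjusted p below 0.05 there were 1199 genes (10.1%), 655 of them higher in AG (5.51%) and 544 lower (4.58%). limma-voom also called 0, while DESeq2 called 118 (0.993%), 54 higher and 64 lower. The authors' deposited table marks 54 genes for the same groups, 24 higher and 30 lower in AG. Of those 54, 50 were tested here and all 50 had an unadjusted p below 0.05, 41 were called by DESeq2 and 0 by the quasi-likelihood test.

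Without AG_1, 1 of 12104 genes was called by edgeR's quasi-likelihood test (0.00826%), and this was Fam25c. Fam25c lies on chromosome 14 (34351881 to 34355433, GRCm38). It stood at 28.4, 26.3 and 33.3 CPM in GC and at 16.6, 9.08 and 10.9 CPM in AG. The AG libraries all lay below GC, with AG_1 the nearest to it. The log2 fold change was -1.56 ± 0.16 (SE) without AG_1, with an adjusted p of 0.0177, and -1.27 ± 0.20 with it, adjusted p 0.111. In MG it stood at 8.85 to 9.84 CPM. Without AG_1, the call was lost when GC_1 or GC_3 was also left out, with log2 fold changes of -1.59 and -1.46. At an unadjusted p below 0.05 there were 1018 genes without AG_1 (8.41%), 480 higher (3.97%) and 538 lower (4.44%). DESeq2 called 66 genes without AG_1 (0.545%), 27 higher and 39 lower, and 48 of them were among its 118 with all libraries.

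The AG livers varied more among themselves than the GC livers. The median standard deviation of log2(CPM + 0.5) over genes was 0.209 in AG, 0.152 in GC and 0.163 in MG, and AG had the largest of the 3 in 5880 genes (49.5%). In 1374 genes the AG libraries spanned more than 1 log2 unit. The library farthest from the other AG libraries was AG_1 in 709 of these genes, AG_3 in 526 and AG_2 in 139. With AG_1 set aside, the median absolute log2 difference between AG_2 and AG_3 was 0.214. Between pairs of GC libraries it was 0.165 to 0.184, and between pairs of MG libraries 0.167 to 0.209. The coefficient of biological variation in the fit was 16.7% with all libraries and 14.4% without AG_1. Since members of the lists below were chosen with earlier results known, their counts are read against all genes tested and carry no test of their own.

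Genes of the male liver programme had lower levels in AG. Of 19 male-biased genes tested, all 19 had a lower mean in AG with and without AG_1, and the median log2 fold change was -0.53 with AG_1 and -0.48 without it, against 0.01 and 0.00 over all genes. In 12 of the 19 the unadjusted p was below 0.05 in the lower direction, where 4.58% of all genes were, and in 10 of the 19 the AG and GC libraries did not overlap, where 7.17% of all genes lay wholly lower. Without AG_1 these counts were 6 (background 4.44%) and 11 (background 12.4%). edgeR's quasi-likelihood test called no member in either case, and DESeq2 called 4 lower with AG_1 and 4 without it. Over all genes DESeq2 called 0.993% with AG_1 and 0.545% without it, in either direction. Without AG_3 the median was -0.35, and 17 of 19 were lower.

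Serpina1e, a male-biased gene of the alpha-1-antitrypsin family, stood at 5593, 4411 and 7375 CPM in GC and at 1604, 1463 and 1687 CPM in AG. Its AG libraries lay close together and all below GC, with a log2 fold change of -1.87 ± 0.37 (SE; edgeR adjusted p 0.199), and of -1.88 ± 0.44 without AG_1 (0.293). Of its exon reads 75.1% were unique, so part of them may be shared with related genes. Cyp7b1, an oxysterol hydroxylase, stood at 319, 298 and 333 CPM in GC and 201, 227 and 148 CPM in AG, again without overlap. This gave a log2 fold change of -0.72 ± 0.17, and -0.76 ± 0.19 without AG_1. Of the male-biased genes, DESeq2 called Mup16, C6 and Cyp7b1 in both cases, Serpina1e with AG_1 and Mup21 without it. The complement component gene C6 stood at 382, 379 and 420 CPM in GC against 275, 275 and 214 in AG, and the transporter gene Slco1a1 at 574, 574 and 604 CPM against 453, 498 and 474. Their log2 fold changes were -0.63 and -0.30, and -0.69 and -0.27 without AG_1.

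Major urinary proteins, small lipid carriers that male mice secrete into urine, were lower in AG in 19 of 20 tested members with AG_1 and in 18 of 20 without it. Their median log2 fold change was -0.84 and -0.77. In 15 of 20 the unadjusted p was below 0.05 in the lower direction (background 4.58%), and in 10 of 20 without AG_1 (background 4.44%). Mup16 on chromosome 4 (61515592 to 61519531, GRCm38) stood at 398, 462 and 392 CPM in GC and at 162, 199 and 178 CPM in AG. Its groups did not overlap, and its log2 fold change was -1.22 ± 0.17 (SE; edgeR adjusted p 0.111), and -1.15 ± 0.19 without AG_1 (0.174). Mup2 stood at 534, 507 and 385 CPM in GC against 103, 174 and 135 in AG, a log2 fold change of -1.79, and of -1.62 without AG_1. These genes are near-identical copies, and 8.28% of the exon reads of Mup16 and 0.64% of those of Mup2 were unique, so the split of reads among them is uncertain. Members that share reads are not separate measurements, so the counts of members above are not counts of independent genes. Mup21, with 98.4% unique reads, stood at 76.4, 73.9 and 147 CPM in GC against 67.7, 48.4 and 45.4 in AG, a log2 fold change of -0.88 ± 0.26, and of -1.08 ± 0.28 without AG_1.

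The female programme did not move as a block, and AG_3 carried most of its difference. Of 10 female-biased genes tested, 9 were higher in AG with a median log2 fold change of 1.32, and of 12 without AG_1, 11 were higher with a median of 1.43. The unadjusted p was below 0.05 in 4 of 10 (background 5.51%) and in 7 of 12 without AG_1 (background 3.97%). Without AG_3 the median was 0.42. Cux2, which encodes a female-specific repressor of male liver genes, stood at 0.586, 0.945 and 1.35 CPM in GC and at 0.610, 0.497 and 12.7 CPM in AG, so that only AG_3 lay above GC. The P450 gene Cyp2b10 stood at 16.8, 15.6 and 12.5 CPM in GC and 5.49, 22.8 and 95.0 in AG, with AG_1 below and the other AG libraries above GC. Fmo2, a flavin monooxygenase gene, stood at 44.9, 42.4 and 33.0 CPM against 45.6, 35.9 and 117. For Cux2, Cyp2b10 and Fmo2 the log2 fold changes were 2.25, 1.45 and 0.71, and 2.75, 1.96 and 0.91 without AG_1. The peroxisomal transporter gene Abcd2 lay above GC in every AG library, and stood at 8.44, 6.30 and 11.1 CPM in GC and 22.1, 22.0 and 31.3 in AG. Its log2 fold change was 1.54 ± 0.26 (SE; edgeR adjusted p 0.114), and 1.61 ± 0.28 without AG_1 (0.174).

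Genes of growth hormone signalling had a median log2 fold change of 0.18 with AG_1 and 0.20 without it, over 15 tested. The unadjusted p was below 0.05 and the level higher in 4 and 3 of them (backgrounds 5.51% and 3.97%). Without AG_3 the median was 0.03, with 8 higher and 7 lower. Socs2, which encodes an inhibitor of the hormone's receptor, stood at 19, 10.7 and 5.40 CPM in GC and at 61.9, 36.9 and 22.4 in AG, without overlap. The log2 fold change was 1.76 ± 0.42, and 1.31 ± 0.39 without AG_1. Cish, another STAT5 target that encodes an inhibitor, stood at 6.45, 7.72 and 8.4 CPM against 16.3, 14.5 and 16.1, with 45.1% of its exon reads unique. The prolactin receptor gene Prlr was higher in AG_3 (95.1 CPM) than in AG_1 and AG_2 (36.6 and 42.3) and GC (30.6 to 39.6). In Cish and Prlr the log2 fold changes were 1.06 and 0.71, and 1.03 and 0.94 without AG_1.

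**Figure D2:**
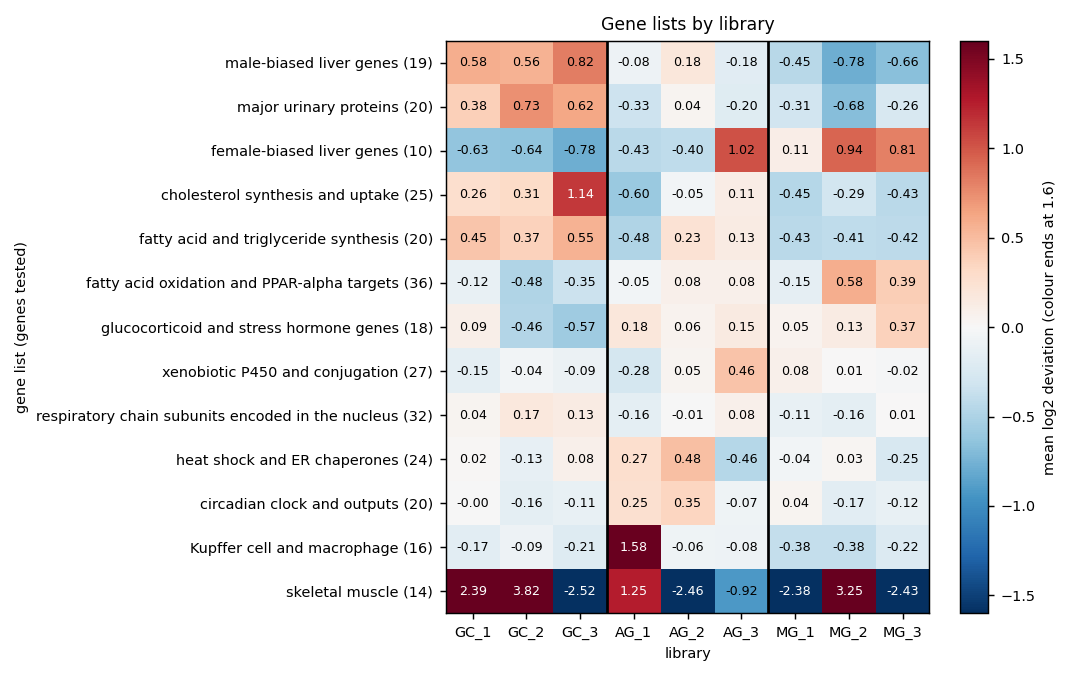
Mean log2(CPM + 0.5) deviation of each gene list from its mean over 9 libraries (colour and printed value), by library (columns) and list (rows, with the number of genes tested). Male-biased genes and major urinary proteins are higher in every GC library than in any AG library, while the female-biased deviation is 1.02 in AG_3 against -0.43 and -0.40 in AG_1 and AG_2, and the cholesterol deviation is 1.14 in GC_3 against 0.26 and 0.31 in the other GC libraries.

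Genes of cholesterol synthesis and uptake had lower levels in AG. All 25 tested genes had a lower mean in AG with AG_1 and 23 of 25 without it, with a median log2 fold change of -0.70 and -0.60. In 15 of 25 the unadjusted p was below 0.05 in the lower direction (background 4.58%), and in 11 the libraries did not overlap (background 7.17%). Without AG_1 both counts were 11, against backgrounds of 4.44% and 12.4%. edgeR's quasi-likelihood test called none in either case, while DESeq2 called 7 lower with AG_1 and 6 without it. Over all genes DESeq2 called 0.993% with AG_1 and 0.545% without it, in either direction. GC_3 weighed on the size: without GC_3 the median log2 fold change was -0.31, and -0.13 without GC_3 and AG_1.

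Pmvk, the phosphomevalonate kinase gene on chromosome 3 (89454541 to 89469013, GRCm38), stood at 19, 22.2 and 33.9 CPM in GC and at 6.56, 9.20 and 9.81 in AG. This gave a log2 fold change of -1.55 ± 0.24 (SE; edgeR adjusted p 0.111), and -1.40 ± 0.25 without AG_1 (0.174). Idi1, which makes the second isoprene building block of the pathway, stood at 80.1, 68.4 and 141 CPM in GC against 15.7, 35.8 and 37.2, and its log2 fold change was -1.70 ± 0.32, or -1.41 ± 0.27 without AG_1. In both genes every AG library lay below every GC library. The sterol dehydrogenase gene Nsdhl stood at 30.5, 25.2 and 52.8 CPM against 7.17, 15.8 and 14.4, and the reductase gene Dhcr7, at the end of the pathway, at 42.9, 38.3 and 67.5 against 13.1, 23.5 and 30.6. Fdps, the farnesyl diphosphate synthase gene, stood at 56.8, 40.6 and 91.2 CPM against 11.4, 34.1 and 25.4, with 24.9% of its exon reads unique. Sqle, the squalene epoxidase gene, overlapped between groups, at 23.1, 28.2 and 72.6 CPM in GC and 15.6, 18.2 and 34.0 in AG. The log2 fold changes of Nsdhl, Dhcr7, Fdps and Sqle were -1.53, -1.14, -1.40 and -0.87, and -1.26, -0.88, -1.08 and -0.67 without AG_1. In each of these genes GC_3 was the highest GC library and AG_1 the lowest AG library.

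The promoters in RefSeq (GRCm38.p6) were searched for the sterol response element, a site through which SREBP acts, as the letters TCACNCCAC on either strand in the 250 bases before the start. It was present in 331 of 27025 promoters (1.22%) and in 1 of the 17 cholesterol genes with a promoter in the table, Hmgcs1, which encodes the synthase that starts the mevalonate pathway. It was also present in 1 of 17 genes of fatty acid synthesis, Mlxipl, which encodes the carbohydrate response factor ChREBP. Both stretches are shown because these genes hold the site. Capitals mark the match, 137 bases before the start in Hmgcs1 (chr13:119690101-119690350, plus strand) and 136 before it in Mlxipl (chr5:135106641-135106890, plus strand):
Hmgcs1: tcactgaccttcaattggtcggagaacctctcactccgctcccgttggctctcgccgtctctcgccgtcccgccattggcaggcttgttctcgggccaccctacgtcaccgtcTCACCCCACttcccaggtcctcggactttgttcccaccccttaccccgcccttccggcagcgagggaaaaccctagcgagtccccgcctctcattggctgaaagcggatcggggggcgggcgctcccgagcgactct
Mlxipl: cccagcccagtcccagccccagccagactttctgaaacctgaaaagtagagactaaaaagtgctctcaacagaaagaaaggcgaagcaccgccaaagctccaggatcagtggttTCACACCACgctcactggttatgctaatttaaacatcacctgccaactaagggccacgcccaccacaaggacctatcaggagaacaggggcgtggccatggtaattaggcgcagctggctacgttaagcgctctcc
Hmgcs1 stood at 77.5, 81.6 and 170 CPM in GC and 57, 69.1 and 76.6 in AG, a log2 fold change of -0.70 ± 0.27 (SE), and of -0.60 ± 0.30 without AG_1. Mlxipl stood at 256, 235 and 281 CPM in GC and 376, 329 and 248 in AG, a log2 fold change of 0.30 ± 0.20, and of 0.16 ± 0.21 without AG_1. Of the other motifs searched, the E-box CACGTG was in 4 of 17 cholesterol promoters (23.5%) and 3 of 17 fatty acid synthesis promoters (17.6%), against 6.86% of all promoters. The GAS letters TTCNNNGAA were in 1 and 0 of them, against 8.13% of all. A match of such letters is a description and no measured site.

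Genes of fatty acid and triglyceride synthesis were lower in AG in 17 of 20 tested, with a median log2 fold change of -0.46, and in 16 of 21 without AG_1, with a median of -0.25. In 8 the unadjusted p was below 0.05 in the lower direction in either case (backgrounds 4.58% and 4.44%). AG_1 was the lowest AG library in each gene of this paragraph, and with all libraries but GC_3 the median was -0.19. The acetyl-CoA carboxylase gene Acacb stood at 356, 297 and 244 CPM in GC and at 62.2, 124 and 153 in AG. Its log2 fold change was -1.40 ± 0.32 (SE; edgeR adjusted p 0.234), and -1.11 ± 0.27 without AG_1 (0.301). Acaca, which encodes the cytosolic carboxylase, stood at 265, 296 and 247 CPM against 124, 198 and 181, and Acly, the ATP citrate lyase gene, at 319, 391 and 388 against 156, 271 and 267. Fasn, the fatty acid synthase gene, stood at 952, 1120 and 1769 CPM against 283, 743 and 747. In all these genes the groups did not overlap. Me1, which supplies NADPH for synthesis, stood at 282, 266 and 297 CPM against 143, 200 and 179. For Acaca, Acly, Fasn and Me1 the log2 fold changes were -0.68, -0.66, -1.12 and -0.70, and -0.51, -0.45, -0.79 and -0.58 without AG_1.

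Without AG_1, 3 lipid synthesis genes differed between the flight groups themselves, a contrast in which GC enters only the estimate of the spread and the scaling. MG against AG called 6 genes lower (0.0496%) and 1 higher (0.00826%) by edgeR's quasi-likelihood test without AG_1, and 0 with all libraries. Leaving out a GC library as well changed the number of calls, to 4 without GC_1, 14 without GC_2 and 5 without GC_3. With all libraries 1165 genes had an unadjusted p below 0.05, and 943 without AG_1, and DESeq2 called 97 (0.816%), against 76 without AG_1 (0.628%). Elovl6, a fatty acid elongase gene, stood at 268, 214 and 215 CPM in GC, 86.9, 176 and 158 in AG and 70.9, 66.6 and 58.8 in MG. Its adjusted p between MG and AG was 0.00943 without AG_1 and 0.20 with it. Against GC its log2 fold change in AG was -0.73, and -0.48 without AG_1. Thrsp, a lipogenic regulator gene, stood at 809, 937 and 1169 CPM in GC, 83.7, 486 and 718 in AG and 187, 130 and 118 in MG, with an adjusted p of 0.0171 between MG and AG without AG_1. Its level in AG_1 lay below all 3 MG libraries, and its log2 fold change against GC was -1.18, and -0.70 without AG_1. Scd1, the stearoyl-CoA desaturase gene, stood at 6599, 5518 and 6094 CPM in GC, 2495, 5578 and 3794 in AG and 1135, 825 and 1636 in MG, with an adjusted p of 0.0308 without AG_1. Against GC its log2 fold change in AG was -0.62 ± 0.29, and -0.38 ± 0.25 without AG_1, while MG against GC, which shares the GC libraries, gave -2.34.

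Fatty acid oxidation genes and targets of PPAR-alpha were higher in AG in 29 of 36 tested, and in 31 of 36 without AG_1. The median log2 fold change was 0.20 and 0.27. In 12 the unadjusted p was below 0.05 in the higher direction (background 5.51%), and in 13 without AG_1 (background 3.97%). The libraries of 14 lay wholly higher in AG (background 7.21%), and of 18 without AG_1 (background 12.3%). Cyp4a14, a fatty acid hydroxylase gene under PPAR-alpha, stood at 430, 214 and 308 CPM in GC and at 906, 711 and 1861 in AG. Its groups did not overlap, and its log2 fold change was 1.87 ± 0.38 (SE; edgeR adjusted p 0.199), and 2.01 ± 0.40 without AG_1 (0.220). The related Cyp4a31 stood at 5.63, 3.62 and 5.85 CPM against 11.9, 10.9 and 14.7. Cd36, the fatty acid translocase gene, stood at 64.4, 54.2 and 57.3 CPM against 90.7, 109 and 101, also without overlap. Fabp1, which encodes the liver fatty acid binding protein, went the other way, at 2873, 3269 and 2687 CPM in GC and 2580, 1690 and 1603 in AG. The log2 fold change was -0.59 ± 0.19, and -0.84 ± 0.15 without AG_1. Acot3, a peroxisomal thioesterase gene, stood at 17.0, 10.4 and 10.2 CPM against 29.1, 24.4 and 58.2. In Cyp4a31, Cd36 and Acot3 the log2 fold changes were 1.30, 0.77 and 1.55, and 1.33, 0.83 and 1.68 without AG_1.

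Lipoprotein and lipase genes did not shift as a list. Of 21 tested, 10 were higher and 11 lower, with a median log2 fold change of -0.01, and of 0.01 without AG_1. The libraries of 6 lay wholly higher in AG and of 2 wholly lower (backgrounds 7.21% and 7.17%), and of 6 and 4 without AG_1 (backgrounds 12.3% and 12.4%). Slc16a7, a monocarboxylate transporter gene outside that list, stood at 91.4, 76.9 and 81.6 CPM in GC and at 153, 124 and 164 in AG. This gave a log2 fold change of 0.82 ± 0.12 (SE; edgeR adjusted p 0.111), and 0.78 ± 0.14 without AG_1 (0.174). Apoa4, an apolipoprotein gene of the list, stood at 108, 59.7 and 46.4 CPM in GC and 319, 172 and 135 in AG, with 46.9% of its exon reads unique. Its log2 fold change was 1.54, and 1.1 without AG_1. In MG, Apoa4 stood at 487, 732 and 904 CPM, above all AG libraries, but the adjusted p between MG and AG was 0.21, and 0.070 without AG_1.

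Genes of glucocorticoid handling and response were higher in AG in 14 of 18 tested, with a median log2 fold change of 0.43, and in 15 of 18 without AG_1, with a median of 0.35. In 9 of 18 the unadjusted p was below 0.05 in the higher direction (background 5.51%), and in 6 of 18 without AG_1 (background 3.97%). The mean log2 deviation of the list was 0.09, -0.46 and -0.57 in GC and 0.18, 0.06 and 0.15 in AG, so that GC_1 lay above AG_2. Serpina6, which encodes the corticosteroid-binding globulin of plasma, stood at 196, 212 and 219 CPM in GC and at 411, 290 and 386 in AG. Its log2 fold change was 0.79 ± 0.13 (SE; edgeR adjusted p 0.111), and 0.69 ± 0.12 without AG_1 (0.174). Hsd11b1, whose enzyme regenerates active glucocorticoid, stood at 225, 229 and 222 CPM against 320, 332 and 353, a log2 fold change of 0.57 ± 0.09 and, without AG_1, of 0.60 ± 0.10. Both genes lay wholly above GC in AG. The phosphatase gene Dusp1 stood at 93.2, 71.7 and 60.5 CPM against 119, 145 and 107. Zbtb16, a hormone-responsive transcription factor gene, stood at 105, 52.0 and 73.4 CPM against 127, 157 and 124. Pck1, the key gene of gluconeogenesis, overlapped, at 3644, 2617 and 2201 CPM in GC and 5218, 5451 and 3541 in AG. The log2 fold changes of Dusp1, Zbtb16 and Pck1 were 0.72, 0.81 and 0.75, and 0.74, 0.86 and 0.67 without AG_1. Fkbp5, also of this list, had a log2 fold change of 0.40 by DESeq2 with all libraries. DESeq2 did not call it with or without AG_1, and without AG_3 its log2 fold change in edgeR was -0.11.

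Xenobiotic P450 and conjugation genes were higher in AG in 20 of 27, with a median log2 fold change of 0.22, and in 22 of 27 without AG_1, with a median of 0.32. The count with an unadjusted p below 0.05 in the higher direction was 5 with AG_1 (background 5.51%) and 12 without it (background 3.97%). AG_3 weighed on the list: without it the median was 0.05, with 14 higher and 13 lower. Cyp3a25 stood at 367, 372 and 377 CPM in GC and at 520, 546 and 633 in AG. Its AG libraries lay clear of a narrow GC range, with a log2 fold change of 0.61 ± 0.10 (SE; edgeR adjusted p 0.114), and of 0.66 ± 0.10 without AG_1 (0.174). Cyp2c38 stood at 32.4, 32.0 and 32.6 CPM against 50.01, 45.4 and 75.7, and in MG at 113 to 119. The glucuronosyltransferase gene Ugt2b36 stood at 496, 528 and 508 CPM in GC against 655, 626 and 662 in AG. Abcc3, which encodes an export pump for conjugates and is not among the 27 genes of this list, stood at 422, 390 and 424 CPM against 543, 602 and 557. For Cyp2c38, Ugt2b36 and Abcc3 the log2 fold changes were 0.82, 0.34 and 0.46, and 0.90, 0.33 and 0.49 without AG_1.

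**Figure D3:**
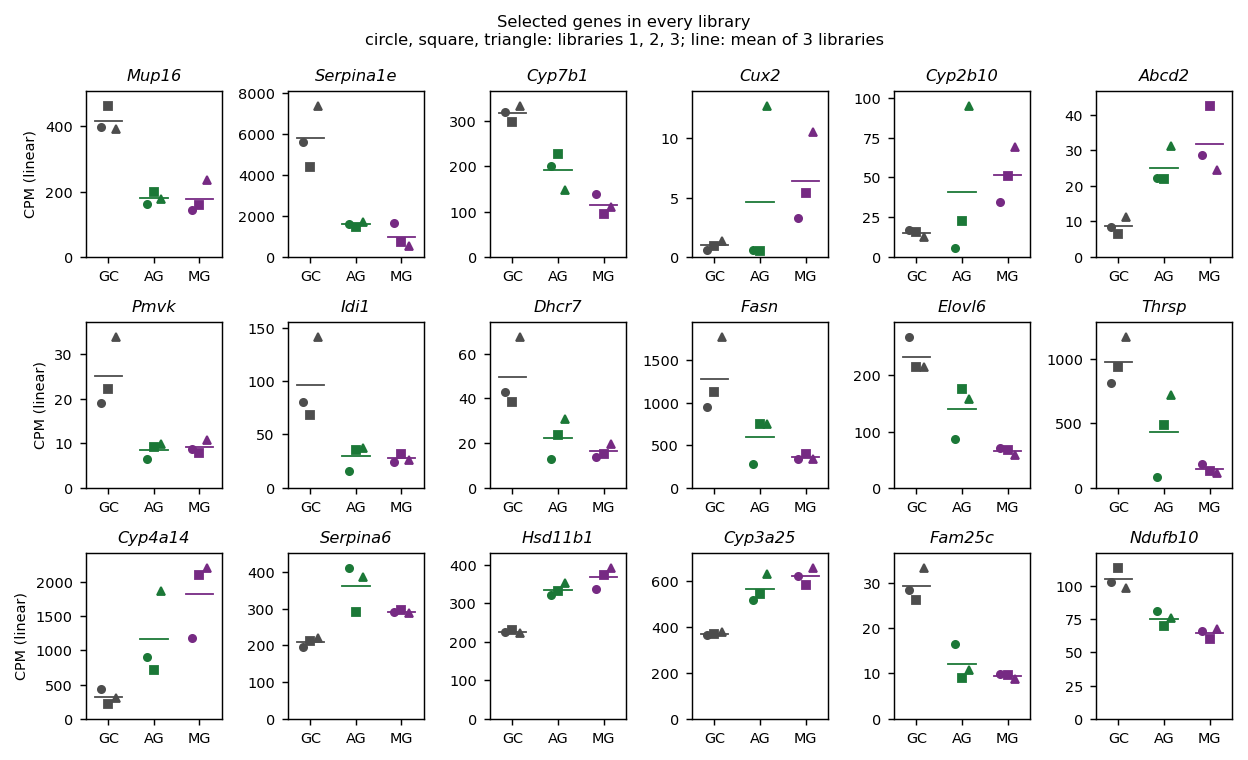
CPM on a linear axis of 18 genes in each library of the 3 groups, where the line is the mean of 3 libraries. Mup16, Serpina1e, Pmvk, Hsd11b1, Cyp3a25 and Ndufb10 separate AG from GC, Cux2 is high in AG_3 alone among AG (12.7 CPM), and Elovl6 and Thrsp are lowest in AG_1 within AG.

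Plasma proteins of the complement and acute phase systems held members that were lower in AG, without a shift of the lists. Over 31 complement and coagulation genes the median log2 fold change was -0.05 with AG_1 and -0.06 without it, and 7 had an unadjusted p below 0.05 in the lower and 3 in the higher direction (backgrounds 4.58% and 5.51%). Without AG_1 the counts were 5 and 2 (backgrounds 4.44% and 3.97%). C8b and C9 encode parts of the pore that lyses cells. C8b stood at 406, 392 and 390 CPM in GC and at 233, 308 and 240 in AG, and C9 at 642, 600 and 621 against 442, 527 and 424. Kng2, a kininogen gene, was higher in each AG library, at 252, 238 and 254 CPM against 190, 180 and 188 in GC. In C8b, C9 and Kng2 the log2 fold changes were -0.60, -0.42 and 0.42, and -0.53, -0.39 and 0.40 without AG_1.

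Over 24 acute phase genes the median log2 fold change was -0.13 with AG_1 and -0.21 without it, and 4 had an unadjusted p below 0.05 in the lower direction in either case (backgrounds 4.58% and 4.44%). Saa1, the serum amyloid A gene, stood at 231, 106 and 32.9 CPM in GC and at 29.7, 14.0 and 20.2 in AG. Its GC libraries spread widely, so that GC_3 lay close to AG_1. Orm1, an acid glycoprotein gene, stood at 568, 578 and 489 CPM in GC against 339, 364 and 411, and Lrg1, a leucine-rich glycoprotein gene, at 650, 476 and 354 against 292, 290 and 279. The log2 fold changes of Saa1, Orm1 and Lrg1 were -2.55, -0.55 and -0.78, and -2.86, -0.50 and -0.80 without AG_1.

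Subunits of the respiratory chain encoded in the nucleus differed by little, and fewer of them were lower without AG_1. With AG_1, 28 of 32 were lower in AG with a median log2 fold change of -0.12, and without it 17 of 32 were lower with a median of -0.06. The unadjusted p was below 0.05 in the lower direction in 5 and 4 of 32 (backgrounds 4.58% and 4.44%). Without AG_1 the libraries of 11 lay wholly lower and of 3 wholly higher (backgrounds 12.4% and 12.3%). Ndufb10 of complex I stood at 103, 113 and 98.3 CPM in GC and at 80.8, 69.5 and 75.5 in AG, without overlap. The log2 fold change was -0.48 ± 0.10 (SE; edgeR adjusted p 0.207), and -0.54 ± 0.11 without AG_1 (0.233). Ndufb3, also of complex I, stood at 45.7, 47.1 and 48.5 CPM against 34.0, 37.4 and 34.2, and Cox5b of complex IV at 127, 150 and 134 against 106, 95.2 and 115. Their log2 fold changes were -0.42 and -0.38, and -0.40 and -0.39 without AG_1. Transcripts of the mitochondrial genome had a median of -0.10, and of -0.03 without AG_1, over 13 tested.

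Among genes of p53 and growth arrest, 5 of 18 had an unadjusted p below 0.05 in the higher direction with AG_1 and 5 without it (backgrounds 5.51% and 3.97%), with a median log2 fold change of 0.24 and 0.27. Trp53inp1, which encodes a p53-induced nuclear protein, stood at 68.6, 69.6 and 68.0 CPM in GC and at 150, 112 and 110 in AG. This gave a log2 fold change of 0.85 ± 0.17 (SE; edgeR adjusted p 0.199), and 0.68 ± 0.16 without AG_1 (0.286). Gdf15, a stress-induced hormone gene, stood at 8.91, 8.51 and 9.60 CPM against 28.5, 18 and 13.9, and Gadd45g at 10.2, 8.82 and 6.75 against 23.9, 23.4 and 20.4. All 3 genes lay wholly above GC in AG. Cdkn1a, the p21 gene, stood at 6.45, 6.62 and 9.75 CPM in GC and 11.9, 11.6 and 45.8 in AG, with AG_3 far above the rest. Bbc3, which encodes the death protein PUMA, lay the other way, at 4.93, 8.51 and 9.60 CPM in GC and 3.20, 3.48 and 4.14 in AG. For Gdf15, Gadd45g, Cdkn1a and Bbc3 the log2 fold changes were 1.16, 1.38, 1.6 and -1.08, and 0.83, 1.34, 1.90 and -1.01 without AG_1.

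The integrated stress response list had 11 of 17 genes higher in AG with a median log2 fold change of 0.32, and 9 of 17 without AG_1 with a median of 0.01. The unadjusted p was below 0.05 in 6 in the higher and 2 in the lower direction (backgrounds 5.51% and 4.58%), and in 5 and 3 without AG_1 (backgrounds 3.97% and 4.44%). The asparagine synthetase gene Asns lay on the lower side, at 7.98, 4.73 and 7.50 CPM in GC and 1.98, 0.622 and 2.30 in AG, a log2 fold change of -2.07, and of -2.26 without AG_1. Its mean was 11 counts in AG, and in AG_2 it lay near the 0.374 CPM of 3 counts. Atf3, Trib3 and Vldlr were higher in AG, with log2 fold changes by DESeq2 of 1.76, 1.42 and 1.20 with all libraries. Mthfd2 was lower, at -0.51. DESeq2 called none of these other genes with or without AG_1.

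Genes called once AG_3 was left out held members of the clock and heat shock lists, and in part of these genes AG_3 parted from the other AG libraries. Leaving AG_3 out, edgeR's quasi-likelihood test called 60 of 12161 genes (0.493%) between AG and GC, 36 higher and 24 lower in AG_1 and AG_2. This fit gave the most calls of those that left out 1 library, against 0 with all libraries. Its choice therefore favours genes in which AG_3 differs, and the position of AG_3 in them is in part fixed by that choice. AG_1 is 1 of the 2 AG libraries of that fit, so the calls draw on it together with AG_2. With AG_1 left out as well only AG_2 remains in AG, so no calls are given here for that case. In 20 of the 60 genes AG_3 lay beyond the GC range on the same side as AG_1 and AG_2, in 14 it lay inside the GC range, and in 26 beyond it on the opposite side. The matching shares over all genes were not counted, so these numbers are not read against a background. Of the 60, 4 were in the clock list of 20 tested, 3 in the heat shock and chaperone list of 24, 3 in the glucocorticoid list of 18, 2 in the glucose list of 22, 2 were major urinary proteins, 1 was Pmvk and 1 each was in the xenobiotic and p53 lists, where a gene can be in more than 1 list. The glucose list as a whole had a median log2 fold change of 0.01 without AG_3, with 11 of 22 higher. The genes named next were chosen after their values were seen.

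The clock repressor gene Nr1d1 stood at 12.2, 12.4 and 10.2 CPM in GC and at 85.2, 48.9 and 9.65 in AG. Its log2 fold change was 2.04 ± 0.59 (SE; edgeR adjusted p 0.311) with all libraries, 1.34 ± 0.52 without AG_1 (0.527) and 2.52 without AG_3 (0.01). Per1, a clock gene that glucocorticoids also raise, stood at 70.1, 46.9 and 55.7 CPM against 150, 117 and 52.7. Per2, its paralogue, showed no such split, at 104, 86.3 and 121 CPM in GC and 106, 116 and 110 in AG. Arntl, also of the clock list, had a log2 fold change of -0.94 without AG_3. Over 20 clock genes the median was 0.18, and 0.20 without AG_1. At an unadjusted p below 0.05, 5 and 4 were higher (backgrounds 5.51% and 3.97%) and 0 lower. Without AG_3, 10 were higher and 5 lower at that threshold, where 2072 of 12161 genes lay in either direction. The heat shock protein gene Hspa1b stood at 40.6, 21 and 35.9 CPM in GC and at 140, 105 and 9.04 in AG, with 33.8% of its exon reads unique. Hsph1, a co-chaperone gene, stood at 159, 146 and 179 CPM against 303, 303 and 137. In both chaperone genes AG_3 lay below every GC library. Over 24 heat shock and chaperone genes the median log2 fold change was 0.13, and 0.11 without AG_1, with 2 and 1 higher at that threshold and 0 lower. Without AG_3 the median was 0.27, with 11 higher and 0 lower. In Per1, Hspa1b and Hsph1 the log2 fold changes were 0.88, 1.38 and 0.62, and 0.55, 0.82 and 0.44 without AG_1.

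Pfkfb3, which encodes a regulator of glycolysis, stood at 42.0, 32.5 and 31.4 CPM in GC and at 137, 118 and 29.0 in AG. The glycogen regulator gene Ppp1r3g was at or below 0.630 CPM in GC and in AG_3, and at 16 and 5.84 CPM in AG_1 and AG_2. The mitochondrial carrier gene Slc25a30 stood at 18.3, 23.6 and 17.1 CPM in GC and at 90.3, 71.4 and 7.20 in AG. Tmie, better known from the hair cells of the ear, was lower in AG_1 and AG_2, at 5.95 and 6.22 CPM, than in AG_3 (16.7) and GC (21.6 to 28.5). In these 4 genes AG_1 and AG_2 lay on the same side of GC. The log2 fold changes of Pfkfb3, Slc25a30 and Tmie were 1.42, 1.52 and -1.42, and 1.06, 1.02 and -1.18 without AG_1. The hour at which each mouse was killed is not given in the sources used here, and its part was not tested.

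**Figure D4:**
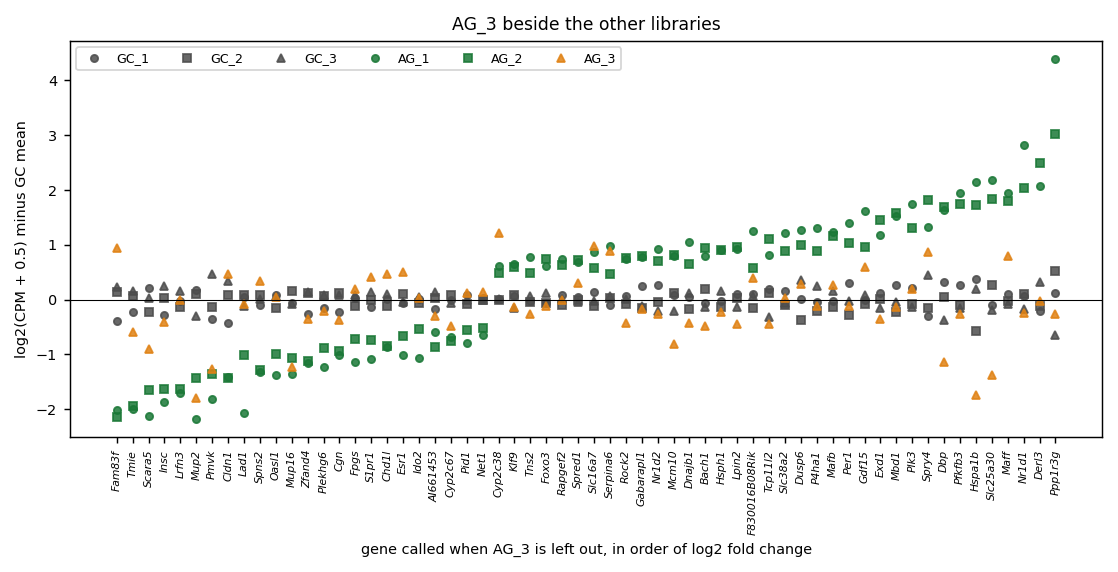
Genes called when AG_3 is left out (60 genes, horizontal axis, in order of log2 fold change) with each AG and GC library as log2(CPM + 0.5) minus the GC mean. AG_1 and AG_2 (green) lie on the same side by the choice of genes, and AG_3 (orange) lies on the opposite side beyond the GC range in 26 genes. The choice of a fit without AG_3 also favours genes in which AG_3 differs. The matching share over all genes was not counted.

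The AG libraries spread widely in some hepatocyte genes, while the hepatocyte marker list had mean deviations of -0.10 in AG_1, -0.12 in GC_2 and 0.13 in AG_3. Bhmt, which encodes a methyl donor enzyme of methionine metabolism, stood at 145 CPM in AG_1, 786 in AG_2 and 2041 in AG_3, against 1327 to 1734 in GC. Cyp7a1, the rate-limiting enzyme gene of bile acid synthesis, stood at 99.6 CPM in AG_1, 195 in AG_2 and 1050 in AG_3, against 398 to 472 in GC, so that AG spanned GC on both sides. The macrophage marker list had a median log2 fold change of 0.65 between AG and GC with AG_1 and of 0.03 without it, and 6 and 1 of its 16 genes had an unadjusted p below 0.05 in the higher direction (backgrounds 5.51% and 3.97%). The interferon response list moved from a median of 0.22 to -0.05 when AG_1 was left out. Lists of the urea cycle and amino acid breakdown (-0.08, and 0.02 without AG_1), cytosolic ribosomal proteins (0.03 and -0.02) and bile acid synthesis and transport (-0.09 and 0.05) had medians close to that of all genes. The AG libraries parted in the urea list, with mean deviations of -0.40, 0.04 and 0.27 in AG_1, AG_2 and AG_3, and in the bile acid list (-0.35, -0.01 and 0.13). Without AG_3, 24 of 25 urea genes and 14 of 18 bile acid genes were lower. At an unadjusted p below 0.05, 6 and 7 were lower, where 2072 of 12161 genes lay in either direction.

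Reads in introns, which come mostly from unspliced transcripts, were tested as a separate readout. edgeR's quasi-likelihood test called 0 of 10630 genes, with 371 genes higher (3.49%) and 460 lower (4.33%) at an unadjusted p below 0.05, and DESeq2 called 12 higher and 11 lower. Without AG_1 it called 0 of 10861, with 299 higher (2.75%) and 294 lower (2.71%), and DESeq2 called 12 and 6. The median log2 fold change in introns was -1.26 for the major urinary proteins and -1.18 without AG_1, -0.46 and -0.36 for the male-biased genes, -0.80 and -0.52 for cholesterol genes, and -0.43 and -0.24 for fatty acid synthesis. For the female-biased genes it was 1.16 and 1.33, and for fatty acid oxidation 0.07 and 0.11. Exon and intron reads come from the same libraries, so the second is no independent replicate of the first.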

How the data were processed

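Total RNA from powdered liver was depleted of ribosomal RNA and sequenced on an Illumina NextSeq 500, per the labels' protocols. The authors deposited 1 table of 49585 genes (30904 without reads) with whole-number read counts per library, which per the file headers are expression values, and exon, junction and intron reads. The expression values equalled unique exon reads plus multiply mapped junction reads in 100% of cells, and were taken as counts. The p-values and signed fold changes of the authors' comparison (a score, negative where lower, from an EDGE test per the file headers) are deposited in the same table, and were used to count its marked genes and as values named as theirs. The submitters' processing notes give the build as GRCm38, mm10. The sources used here name no aligner or counting tool and do not say whether strand was used. Region starts were raised by 1 to count from 1. A further 81 columns with values of single libraries stayed unused.

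Genes kept by filterByExpr were scaled by TMM and fitted with edgeR 4.0.16 (quasi-likelihood, 1 mean per group over 9 libraries, and again over 8 without AG_1), with Benjamini-Hochberg adjustment and a threshold of 0.05. SE is the log2 fold change divided by the root of F. Deviations used log2(CPM + 0.5). Intron reads were fitted the same way. Depth per library was 6194521 to 8957331 counts. Reads are not independent molecules, so 3-count floors cover counting error only. A pipeline check on simulated counts was run after the main fits. The members and gene lists were chosen with earlier results of these data known. Named genes are the 5 with the smallest p each way in either fit (or up to 15 called), up to 6 per list by p without AG_1, a fixed set, and the genes in which AG_1 was most extreme, among genes with at least 50 counts. Genes outside this rule are said to be so. Alternatives were other scalings, filters, thresholds and tests (DESeq2 1.42.0, limma-voom with limma 3.58.1), AG and GC libraries only, a block, marker covariates, unique reads and leaving out libraries. DESeq2 on AG and GC only was added after seeing the data. R 4.3.3, Python 3.11.15, pandas 2.3.3 and matplotlib 3.10.9 were used.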

Additional observations from a re-analysis of the deposited data

Results flagged for a closer look

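Between the flight groups, MG against AG, 7 genes were called by edgeR's quasi-likelihood test when AG_1 was left out and differ between 2 groups that both flew. All 7 missed the threshold with AG_1. On leaving out 1 further library, Elovl6 was called in all 8 fits, Thrsp in all but those without MG_2 or MG_3, and 1500017E21Rik in all but those without AG_2, MG_1 or MG_3. Scd1 was lost without AG_2, GC_1, GC_3 or MG_1. Ces2c was called only without AG_3, GC_2 or MG_2, Lama3 only without GC_2 or GC_3, and Peg3 only without GC_2. The adjusted p without AG_1 was 0.00943 for Elovl6, 0.0171 for Thrsp and 0.0308 for Scd1, the lipid synthesis genes whose levels are given above. Ces2c, a carboxylesterase gene, had an adjusted p of 0.0378 and stood at 89.5, 89.6 and 82.8 CPM in GC, 47.7, 73.9 and 49.6 in AG and 19.1, 27.1 and 16.2 in MG. Lama3, a laminin subunit gene, had an adjusted p of 0.0473 and stood at 18.5, 17.6 and 23.6 CPM in GC, 7.17, 12.6 and 12.4 in AG and 5.65, 4.91 and 4.89 in MG. The row 1500017E21Rik had an adjusted p of 0.0171 and stood at 6.22, 8.03 and 6.45 CPM in GC, 2.74, 5.47 and 5.06 in AG and 0.791, 1.13 and 0.792 in MG. In these 3 the AG libraries lay between GC and MG. Peg3, an imprinted gene, had an adjusted p of 0.0473 and was higher in MG, at 31.2, 31.0 and 34.6 CPM, than in AG (16.5, 16.3 and 13.5) and GC (13.0, 15.4 and 17.4).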

How the results depend on the processing

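Counts are genes higher and lower in AG. With all libraries, where the test called 0 and 0, no filter gave 19 and 25, DESeq2 54 and 64, AG and GC libraries only 0 and 4, the muscle covariate 0 and 2, the macrophage covariate 0 and 1, and DESeq2 on AG and GC only, chosen after seeing the data, 43 and 40. Leaving out 1 library gave 0 to 36 higher and 0 to 24 lower, the most without AG_3. Without AG_1, where it called 0 and 1, an adjusted p below 0.01 left 0 lower, no filter gave 75 and 84, DESeq2 27 and 39, AG and GC only 0 and 5, and leaving out GC_1 and GC_2 too 1 higher (Dmbt1) and 1 lower (Idi1), with Fam25c lost. Leaving out a further library gave 0 to 16 and 0 to 5; where 1 AG library remained, it is assumed to vary like the other groups. MG against AG gave 38 higher and 59 lower by DESeq2 and 0 to 70 and 0 to 60 on leaving out 1 library, and without AG_1 28 and 48, and 0 to 6 and 2 to 18. Intron reads gave 12 and 11 by DESeq2 and 0 to 60 and 0 to 119 on leaving out 1 library, and without AG_1 12 and 6, and 0 to 16 and 0 to 3.

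Library numbers did not pair the libraries (correlations of deviations 0.159, -0.236 and 0.122), so the replicate block is given here only: AG against GC 0 and 0, without AG_1 0 and 0, MG against AG 0 and 1, and without AG_1 0 and 3.

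Log2 fold changes of some named genes changed sign on leaving out 1 library. With all libraries Cux2 ranged from -0.76 (without AG_3) to 2.80 and Cyp2b10 from -0.056 (without AG_3) to 1.96. Without AG_1, Cux2 ranged from -0.89 to 3.73, Fmo2 from -0.16 to 1.54, Sqle from -1.18 to 0.014 (without GC_3), Nr1d1 from -0.27 to 2.07, Per1 from -0.14 to 1.01, Pfkfb3 from -0.29 to 1.74, Ppp1r3g from -1.01 to 4.10, Hspa1b from -1.85 to 1.68, Hsph1 from -0.24 to 0.91, Slc25a30 from -1.45 to 1.86 and Mlxipl from -0.060 to 0.36. The cause of these changes was not tested.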

Other observations

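A few genes of mucosal and duct epithelium had reads in all AG libraries, and Dmbt1, Muc3 and Slc26a3 were at or near 0 in most others. They were chosen after their values were seen. Dmbt1, which encodes a secreted mucosal scavenger protein, had 520, 2210 and 921 counts in AG_1, AG_2 and AG_3, 1, 551 and 0 in GC_1, GC_2 and GC_3, and 0, 5 and 0 in MG. The intestinal mucin gene Muc3 had 9, 13 and 6 counts in AG and 0 in every GC and MG library, where a count of 0 allows up to 3 counts. The authors' deposited table gives Muc3 a 79.0-fold difference between AG and GC with an adjusted p of 0.000263, on counts this low. The intestinal chloride exchanger gene Slc26a3 had 4, 26 and 12 counts in AG, 0, 2 and 0 in GC and 0 in every MG library. Krt19, a keratin of duct epithelium, was present in every library and had 45, 172 and 55 counts in AG, 20, 73 and 9 in GC and 16 to 19 in MG. In Dmbt1, Slc26a3 and Krt19 the highest GC library was GC_2 and the highest AG library AG_2. Of 7 bile duct markers tested, 4 were higher in AG, and 5 of 8 without AG_1, with median log2 fold changes of 0.30 and 0.37. edgeR's quasi-likelihood test called neither Dmbt1 nor Krt19, with adjusted p of 0.50 and 0.516. Without GC_2 it called Dmbt1, with an adjusted p of 0.0139, and of 0.000654 without GC_2 and AG_1. GC_2 held 551 counts of Dmbt1 against 1 and 0 in GC_1 and GC_3, so leaving it out removes the contrary value. Dmbt1 was also chosen after its values were seen, so these 2 calls are no support for a difference.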
